A study of Mus musculus and Homo sapiens with 4 samples.

Results

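A375M is an established human melanoma line, and 2 of the 4 arrays of the series were made from it. The A375M control cells had been infected with the pSIREN-RetroQ retrovirus in its control form, and the knock-down cells with the same vector expressing a hairpin against human Merm1/Wbscr22. Both were kept as stable lines in DMEM with FBS, so the control cells had also been through infection. The labels do not say whether either line was 1 clone or a pool, and each group held 1 array. The other 2 arrays compare the same pair of conditions in the mouse osteosarcoma line LM8, with a hairpin against the mouse gene. All comparisons below are between the 2 A375M arrays, chosen by their sample labels, over 54675 probe sets. Of the 54613 that are not Affymetrix controls, 41091 carried 1 gene symbol, 1801 carried several and 11721 carried none.

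Merm1 is now named BUD23. It encodes the methyltransferase that places a methyl group on a guanosine of 18S ribosomal RNA, and it works bound to TRMT112, a small activating protein that also serves several other methyltransferases. Its gene lies in the chromosome region that is deleted in Williams-Beuren syndrome. A375M cells carry the activating BRAF mutation that is frequent in melanoma. Melanoma cells are commonly described between a pigmented state driven by the transcription factor MITF and an invasive, dedifferentiated state marked by the receptor kinase AXL.

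The deposited values are log2 expression values made with RMA, which corrects background, equalises the arrays and summarises the probes of each probe set. A difference is the knock-down value minus the control value, so 1 means 2-fold higher and -1 means 2-fold lower in the knock-down array. A gene was read from its probe set with the highest mean of the arrays. Genes whose probe set exceeded the 50th percentile of the non-control probe sets on either array were kept, which left 13244 of 19775 named genes. With 1 array per group there is no replicate, no test and no error for any difference; precision is limited by having so few arrays. Spread could be gauged only technically. Over 6265 genes with several kept probe sets, the SD was taken between the differences of 1 gene. Its median was 0.0712 and its 95th percentile 0.246. Differences of exactly 0 are included, so this SD can understate the technical spread. Spike-ins, given below, are a further technical gauge. Neither gauge holds any spread of cultures or of separate infections.

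The deposited values of the A375M arrays were close to each other. After knock-down 11 kept genes (0.0831%) were higher by 2-fold or more, and 6 (0.0453%) were lower by as much. Of the 11 higher genes, 6 had a control value at or below the array median. They were kept only through their knock-down value and so had to differ. Likewise 1 of the 6 lower genes was kept only through its control value. At 1.5-fold, 50 genes were higher (0.378%) and 49 were lower (0.370%). These shares are the background against which every count below can be read. Repeating quantile normalization turned the 2-fold split of 11 higher and 6 lower into 13 and 4, and the 1.5-fold split of 50 and 49 into 54 and 35. Centring each array moved the splits the other way, to 10 higher and 8 lower at 2-fold and to 45 and 60 at 1.5-fold. Counting any difference at all, 29.0% of kept genes were higher, 40.3% were lower and 30.8% had the same value in both arrays. Over all probe sets 24837, or 45.4%, were identical, and 24862 lay within 0.001 of each other. The step that gave so many equal values is not stated in the sources used here. An identical reading therefore does not by itself show a lack of change. Small differences depended on scaling: centring each array on its own median made 77.0% of kept genes lower, while repeated quantile normalization made 57.2% higher. The median difference of all kept genes was 0 as deposited, -0.03 after centring and 0.02 after repeated quantile normalization. Beside the direction of a gene list, its counts after centring or repeated quantile normalization are given below where the direction turned or came nearest to even.

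As deposited, the direction of small differences also moved with the level of the gene. With kept genes ranked by level and cut into 10 equal bins, 33.4% of the dimmest bin were higher and 17.4% lower, whereas in the bin between levels of 8.20 and 8.80 23.3% were higher and 54.7% lower. Genes at least 1.5-fold higher were dim, with a median level of 5.31 against 7.65 for all kept genes, and 21 of the 50 had a control value at or below the array median. For genes at least 1.5-fold lower the median level was 7.16, and the knock-down value of 4 of the 49 was at or below the array median. The size of a difference that starts or ends near that median, 4.64 in control and 4.67 in knock-down cells, is imprecise. Hybridisation spike-ins, RNAs added in equal amounts, differed by a median of 0.056 over 18 probe sets (0 to 0.28), and labelling spike-ins by 0.026 over 24 (-0.03 to 0.31). The other 20 control probe sets ranged from -0.081 to 0.48. Many of the gene and list differences below are smaller than these largest control differences. RNA quality could be read from probe sets along 1 transcript: ACTB differed by 0.0037 at its 3' end and by -0.081 at its 5' end, and GAPDH by 0.011 and 0.

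**Figure D1:**
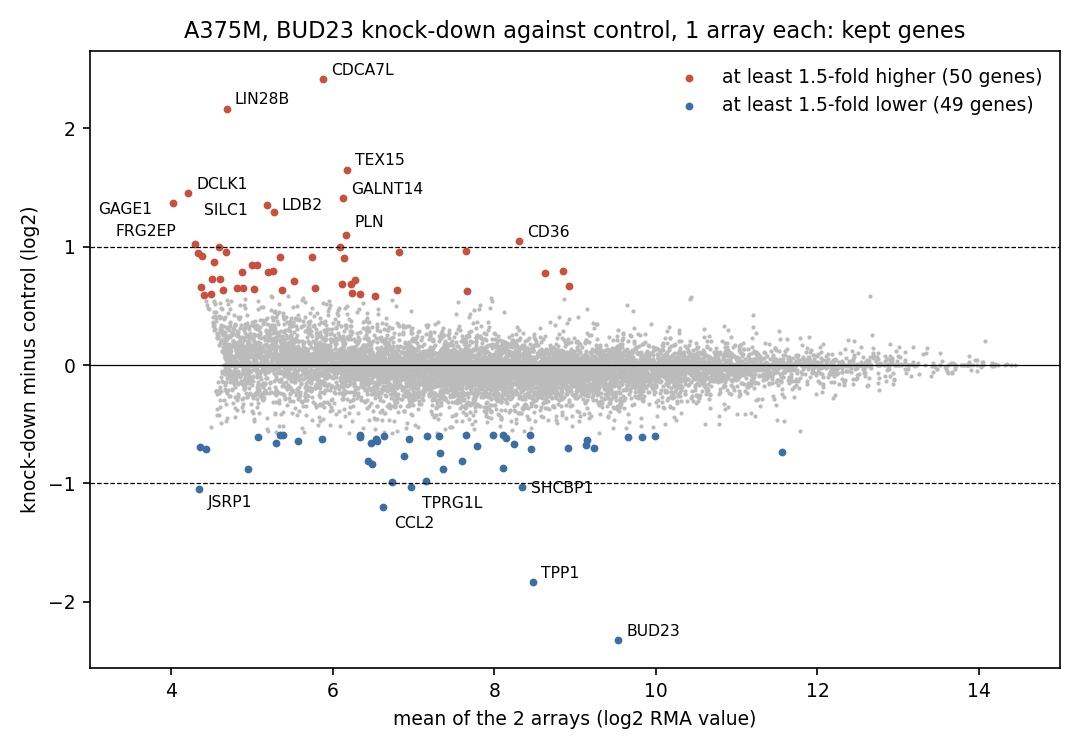
Each point is 1 kept gene of A375M, with the mean of both arrays (log2 RMA value) on the x axis and knock-down minus control (log2) on the y axis; red and blue points are the 50 genes at least 1.5-fold higher and the 49 at least 1.5-fold lower, dashed lines mark 2-fold, and the genes past 2-fold are named. CDCA7L and LIN28B are the highest points and BUD23 and TPP1 the lowest, and most red points lie at the dim end of the axis.

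The knock-down was seen in its target. The bright BUD23 probe set read 10.70 against 8.38, so the knock-down signal was 4.99-fold lower, or 20.04% of that in control cells. A second probe set lay below the array median in both arrays at 3.28 and 3.16, so it holds little information, and averaging both probe sets gave -1.22. Of the proteins that share work with BUD23, its activator TRMT112 read 12.25 and 12.21. METTL5 and ZCCHC4, further ribosomal RNA methyltransferase genes, read 11.96 and 12.03, and 5.94 and 5.92. Among other methyltransferases that bind TRMT112, TRMT11 read 9.45 and 9.13. Both ALKBH8 probe sets were lower, at 8.08 against 7.81 and 7.41 against 7.02. THUMPD3 read 9.06 and 9.01, and THUMPD2 read 7.75 and 7.90. None of these 7 partner genes reached 1.5-fold. Among the 24 kept genes of the Williams-Beuren region, BUD23 was the only 1 past 1.5-fold. GTF2IRD2, a transcription factor gene of that region, followed at -0.40, a reading that near-identical copies of this gene could share, and BAZ1B, a chromatin remodelling gene, was at -0.13.

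The ribosome machinery around the target was nearly level. Of 39 kept genes for 18S rRNA modification and small subunit assembly, 12 were higher, 12 lower and 15 identical, with a median difference of 0. IMP3, a small subunit assembly factor gene, was at 0.22 (9.03 to 9.24), and TSR2, a factor that delivers a ribosomal protein to the assembling subunit, was at -0.18. Of 52 kept cytosolic ribosomal protein genes 17 were higher and 14 lower, with RPLP2 (0.12) and FAU (0.12) the widest. Of 34 kept large subunit assembly and nucleolar genes 14 were higher and 12 lower. None of the 3 groups held a gene past 1.5-fold. The signs of these small differences turned with scaling, with 31 of the 39 small subunit assembly genes lower after centring and 30 higher after repeated quantile normalization. Likewise 47 of the 52 ribosomal protein genes and 28 of the 34 large subunit genes were lower after centring, and 26 of each were higher after repeated quantile normalization.

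The labelled cell type was checked against its markers. Of 11 melanocyte markers measured, 10 were kept, and GPR143 lay below the array median. Pairs of readings are given control first. The transcription factors of the lineage were bright: SOX10 read 11.62 and 11.53, MITF 10.61 and 10.74, and PAX3 8.18 and 8.25. The endothelin receptor gene EDNRB read 11.79 and 11.65, and S100B, a calcium-binding protein used to stain melanoma, read 10.68 and 11.01. Several genes of the pigment pathway gave low readings in both arrays. TYR, the rate-limiting enzyme of melanin synthesis, read 6.04 in both, and TYRP1, its relative, 6.01 and 6.04. PMEL, the fibril protein of melanosomes, read 5.42 and 5.57, and MLANA, a melanosome antigen, 4.84 and 5.19. The transporter gene SLC45A2 read 5.25 and 5.50. TRPM1 and KIT, a melanocyte channel and the receptor of stem cell factor, lay below the array median. A375M thus carried the transcription factors of the lineage with little signal for the pigment genes named here, and this held for both arrays. It does not extend to the whole melanocyte and pigmentation list, whose 26 kept genes had a median level of 8.80.

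Several markers of the invasive state also lay far above the array median. AXL read 11.04 in both arrays, SOX9 11.77 and 11.73, and the cadherin CDH2 10.27 and 10.35. TNC, which encodes the matrix protein tenascin, read 12.30 in both, and CDH1, the epithelial cadherin gene, lay below the array median at 2.75 in both. NGFR and EGFR, receptors often used to mark dedifferentiated melanoma, gave low identical readings of 5.32 and 6.13 on their brightest probe sets, and other kept EGFR probe sets differed by -0.60 to 0.23. Of 30 kept genes of this list 16 were lower, 6 higher and 8 identical; 27 were lower after centring, but 16 lower and 13 higher after repeated quantile normalization, which is close to even. TGFBI, a secreted protein that binds collagen and integrins, was the only one past 1.5-fold, at 11.92 against 11.19. NT5E, the ecto-enzyme CD73, was lower on each of its 4 kept probe sets (-0.14 to -0.50). CAV1, the coat protein of caveolae, was lower on both of its probe sets (-0.41 and -0.38). WNT5A, the ligand tied to melanoma invasion, was also lower on both (-0.28 and -0.55). FN1, which encodes fibronectin, ran the other way: it was higher on all 6 kept probe sets, by 0.17 to 0.51, and its brightest read 12.81 and 12.98.

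Transcripts induced by the BRAF, MEK and ERK pathway lay above the array median in both arrays, in all 27 genes measured. The same held for every measured gene of several other lists, such as mitosis, splicing factors and autophagy, so it does not set this list apart. DUSP6, the phosphatase that ERK induces against itself, read 12.36 and 12.24. The feedback inhibitors SPRY2 and SPRY4 read 11.99 and 11.98, and 11.90 and 11.89. PHLDA1 read 12.90 and 12.93, DUSP4 10.89 and 10.97, and the ERK-induced transcription factor gene ETV5 9.83 and 9.75. Of 27 kept genes 11 were higher and 13 lower with a median of 0, none passed 1.5-fold, and after repeated quantile normalization 15 were higher and 12 lower. SPRY1 (7.90 to 8.34) and FOS (7.31 to 7.74) were the most different, followed by FOSL1 at -0.28. SPRY1 was identical on its other probe set.

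Among receptor kinases, ERBB3 read 11.18 in both arrays on its brightest probe set, MET, the receptor of hepatocyte growth factor, 10.57 and 10.48, and EPHA3 10.85 and 10.72. The ligand gene TGFA read 11.67 and 11.90, and HGF read 9.22 and 9.16. Of 49 kept receptors and ligands 8 were higher, 20 lower and 21 identical, none past 1.5-fold, with 44 lower after centring and 27 lower against 18 higher after repeated quantile normalization. KDR, a receptor of vascular endothelial growth factor, and ALK had the widest differences at -0.40 each. In the downstream list of RAF, MEK, PI3K and mTOR genes 25 of 36 were lower and 3 higher, with a median of -0.064. Its lower genes numbered 34 after centring, 26 after a loess curve over level was removed and 21 after repeated quantile normalization. Of all kept genes 77.0%, 45.9% and 36.5% were lower under the same settings, and centring lowers every difference alike. The widest difference of this downstream list was PIK3CD, a catalytic subunit gene of PI3-kinase, at -0.30.

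**Figure D2:**
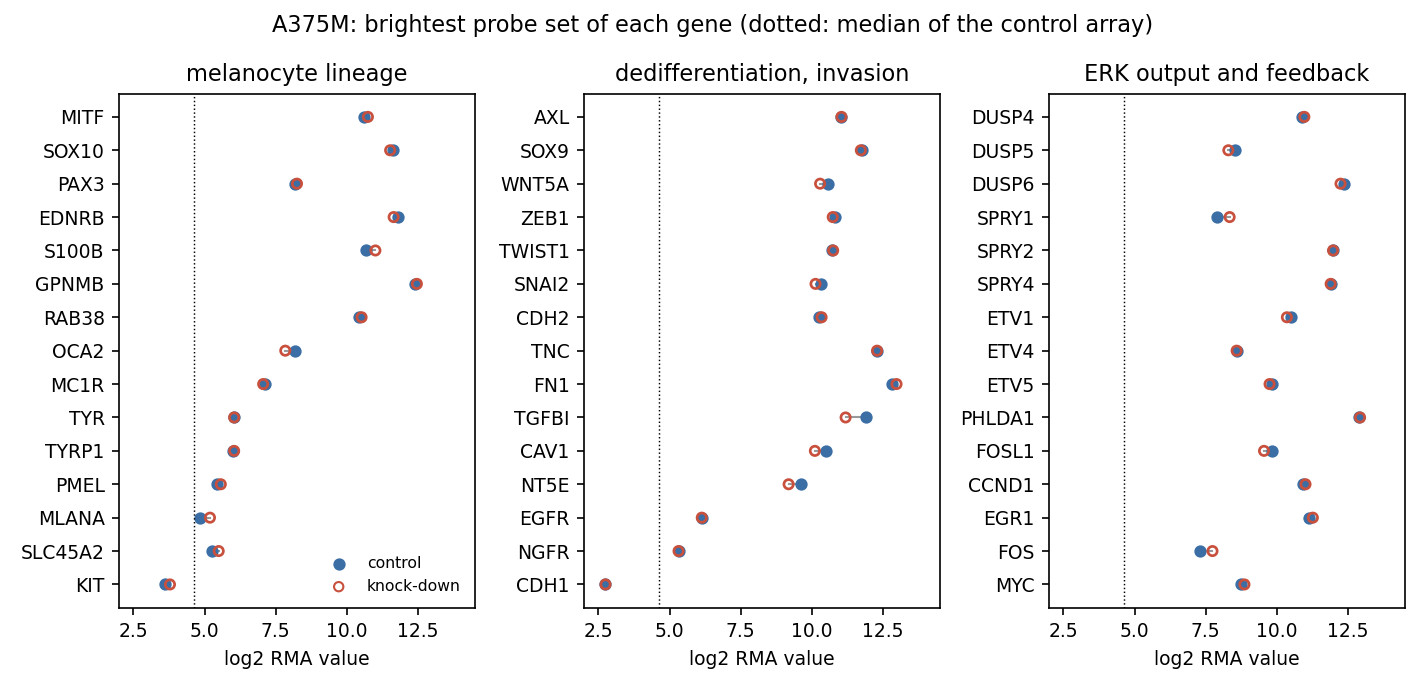
Log2 RMA values (x axis) of the brightest probe set of 15 genes in each of 3 lists, with filled blue points for the A375M control array, open red points for the knock-down array and a dotted line at the control median of 4.64. SOX10, AXL and DUSP6 lie far right of the median and the pigment genes TYR, PMEL and MLANA close to it; control and knock-down points overlap for most genes, and TGFBI is the most separated, 11.92 against 11.19.

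Markers of other cell types were in part measured above the median. The filter kept 13244 of all 19775 named genes, so the kept counts alone do not show that another cell type was present. Of 9 keratinocyte and epithelial markers 3 were kept. KRT10 read 11.28 in both arrays, KRT18 10.82 and 10.78, and KRT8 5.10 and 5.05, while KRT5, KRT14 and EPCAM lay below the array median. Of 8 leukocyte markers 5 were kept; LAPTM5 read 7.17 in both arrays, and the others lay between CD3E at 4.95 and CD53 at 5.60, with PTPRC below the median. Smooth muscle and pericyte markers were kept in 6 of 8 cases, with MCAM, an adhesion molecule also found on melanoma cells, at 10.90 and 10.81. Neuron and glia markers were kept in 7 of 9 cases, with the neurofilament gene NEFL at 9.77 and 9.74, and adipocyte markers in 2 of 6, with the lipase gene LPL at 11.10 and 11.37. Endothelial markers were kept in 5 of 8 cases, with CDH5 and TEK below the median. Fibroblast markers were kept in 8 of 10 cases, with COL1A2 at 10.67 and 10.39, and their summed level on a log2 scale was 11.38 and 11.24. Of 26 kept genes in the longer melanocyte and pigmentation list 15 were higher and 9 lower (14 and 12 after centring), led by APOE, an apolipoprotein gene, at 0.56, 0.67 and 0.34 on its 3 probe sets. The summed level of melanocyte markers was 13.35 and 13.36. Of 3 erythroid markers only HBB, the beta globin gene, was kept (5.78 to 6.46), with its other kept probe sets at 0.29 and 0. Summed striated muscle markers read 7.66 and 8.05 with 4 of 8 kept, and they include PLN, described next. In bulk RNA, a different share of cells and a different amount of RNA per cell cannot be told apart.

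Among the genes higher after knock-down, those read past 1.5-fold by every one of several probe sets come first. CD36, the scavenger receptor that takes up fatty acids, read 7.79 and 8.83 on its brightest probe set, 7.04 and 8.20 on the second and 6.69 and 8.16 on the third. All lay well above the array median. PLN encodes phospholamban, the inhibitor of the calcium pump of the sarcoplasmic reticulum. Its probe sets read 5.62 and 6.71, 3.97 and 6.30, and 3.36 and 4.75, so 2 of the 3 started below the array median. SOX11, a neural crest and fetal transcription factor gene, read 6.35 and 7.30, 6.20 and 7.27, and 5.31 and 6.43. MYOZ2, which encodes a sarcomere protein that binds calcineurin, read 8.46 and 9.25, and 7.93 and 8.78. MMP8, neutrophil collagenase, read 8.59 and 9.26, and 7.12 and 7.90. COL11A1, a fibrillar collagen gene, was dimmer, at 4.87 and 5.66, and 4.48 and 5.67. A probe set was kept if either array exceeded the median, so one that was kept only through its higher value had to differ, as for the dimmer PLN and COL11A1 probe sets. Probe sets below the median in both arrays were left out, and they differed by 0.13 and 0.22 for CD36, 0 for COL11A1 and 0.05 for MYOZ2. SOX11 and MYOZ2 were not kept without the probe sets marked as shared by several transcripts. Their agreeing probe sets are thus not shown to be independent readings. These 6 genes, with FLRT3 and SORL1 among the lower ones, were the 8 past 1.5-fold on every kept probe set, out of 41 genes past 1.5-fold that had several. Another 19 were in 1 direction without passing on each probe set, which gives 27 in 1 direction in all; the filter partly fixes these counts.

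The genes at least 2-fold higher included germ-line and oncofetal genes, some of them kept only through their knock-down value. TEX15, a testis gene needed for meiotic repair and for silencing of transposons, read 5.35 in control cells and was 1.65 higher after knock-down, while its second probe set, below the median, read 3.71 in both. GAGE1, a cancer-testis antigen, read 3.34 and 4.70 on its own probe set, starting well below the array median. A further 4 probe sets match several members of the GAGE family and so name no single gene; they were singled out after their values were seen. They were bright, at 9.52 to 9.70 in control and 10.72 to 10.85 in knock-down cells, and 1.07 to 1.20 higher. These probe sets share target sequences and are not independent readings. PAGE1, of a related family, read 4.90 and 5.80. Other members differed by less: MAGEA10 differed by -0.19, MAGEA11 by -0.15 and SSX1 by 0.17. In all, 21 of 39 measured cancer-testis and germ-line genes were kept, 3 were past 1.5-fold, each higher (GAGE1 kept only through the knock-down array, so it had to differ), and 9 were higher, 6 lower and 6 identical, while 15 were lower after centring.

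LIN28B, the RNA-binding protein that blocks maturation of let-7 microRNAs, read 3.60 and 5.77. Its only probe set thus went from below to above the array median, and the gene was kept only through its knock-down value, so no fold is given. With 32 added to the linear values the difference was 0.97. Of 23 kept genes in the list of LIN28, let-7 targets and oncofetal RNA-binding proteins 9 were higher and 9 lower with a median of 0, with 16 lower after centring and 12 higher after repeated quantile normalization. HMGA2, a chromatin protein gene and a known let-7 target, read 10.14 and 10.72 on its brightest probe set. Its other 5 kept probe sets differed by -0.39 to 0, so the readings of this gene disagree. IGF2BP3, an oncofetal RNA-binding protein, was lower, 10.47 against 10.16.

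CDCA7L, a MYC-interacting nuclear protein, had the highest difference of all kept genes, from 4.67 to 7.09 or 5.34-fold. Its control value was just above the array median and its name carries the mark of probes shared by several transcripts. MYC itself read 8.74 and 8.86, and MYCL, a relative, was higher on both of its probe sets at 5.66 and 6.17, and 4.62 and 4.96. The remaining 2-fold genes were mostly dim, and DCLK1, LDB2, SILC1 and FRG2EP were kept only through their knock-down value. GALNT14, which starts mucin-type O-glycans, read 5.42 and 6.83. DCLK1, a microtubule-associated kinase gene, read 3.49 and 4.94, with its other 3 probe sets at 0.05 or less and below the median. LDB2, an adaptor of LIM-domain factors, read 4.62 and 5.91. The non-coding RNA gene SILC1 read 4.51 and 5.86, and 4.27 and 4.80 on its second kept probe set. FRG2EP, a pseudogene of a repeated family whose probe signal cannot be assigned to 1 copy with certainty, read 3.78 and 4.80. AGT, which encodes angiotensinogen, was just under 2-fold at 5.59 and 6.59. NR2F1, an orphan nuclear receptor gene of the neural crest, went from 4.20, below the median, to 5.15.

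Among the lower genes, BUD23 was followed by TPP1, which encodes a lysosomal tripeptidyl peptidase. Its bright probe sets read 9.39 and 7.56, and 8.64 and 6.70, a difference of 3.56-fold on the first. The dimmer ones read 5.67 and 5.50, and 5.55 and 5.80. The last is the only probe set of this gene that is not marked as shared between transcripts, so without marked probe sets its difference was 0.25 and of opposite sign. Of 41 kept lysosomal genes 14 were higher and 19 lower with a median of 0, and after repeated quantile normalization 25 were higher. SMPD1, acid sphingomyelinase, was at -0.52 with its other kept probe set at 0.17, and the protease gene CTSS was lower on each of 3 probe sets (-0.14 to -0.49).

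Several lower genes, singled out after their values were seen, were read by many probe sets. BBX, an HMG-box protein gene, was lower on all 6 kept probe sets (-0.47 to -0.70), with the brightest at 9.58 and 8.88. OSTM1, a membrane protein of lysosomes and osteoclasts, was lower on all 4 (-0.49 to -0.73). IFNAR1, a chain of the type I interferon receptor, differed by -0.84 and -0.92 on 2 of its 4, and by -0.15 and 0 on the others. By the rule of several agreeing probe sets, FLRT3, an adhesion and axon guidance receptor, read 10.29 and 9.69, and 9.13 and 8.49. SORL1, a sorting receptor, read 8.40 and 7.81, and 8.18 and 7.51. SHCBP1, a protein of the central spindle in dividing cells, read 8.86 and 7.84 on its only probe set, TPRG1L 7.49 and 6.45, and JSRP1, a junction protein of the sarcoplasmic reticulum, 4.87 and 3.83, ending below the median.

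**Figure D3:**
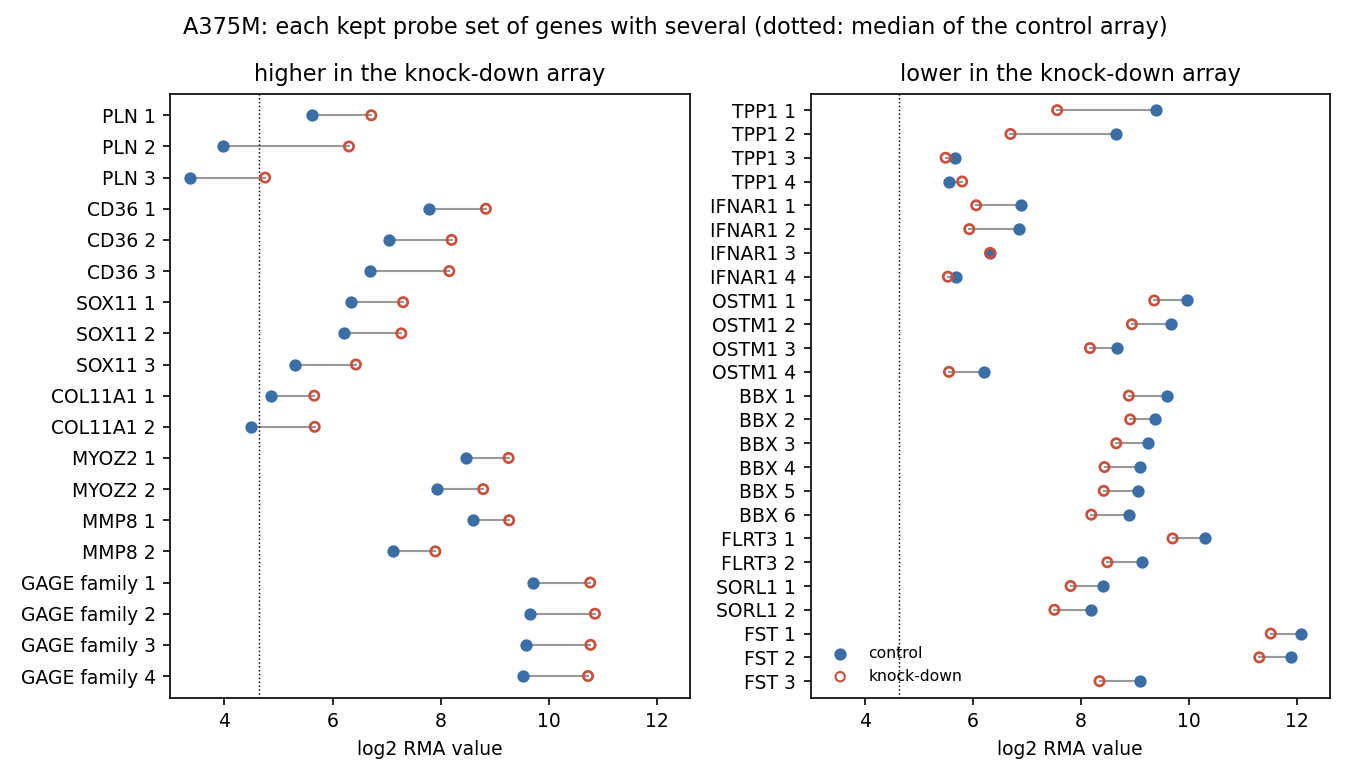
Log2 RMA values (x axis) of every kept probe set of genes measured more than once, 1 line per probe set numbered from the brightest control value, with filled blue points for the A375M control array, open red points for the knock-down array and a dotted line at the control median of 4.64. All probe sets of CD36, SOX11 and BBX are shifted in 1 direction, whereas TPP1 and IFNAR1 each have 2 probe sets shifted far and 2 shifted little or not at all.

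Most genes of the inflammatory list were lower, in large part by less than 1.5-fold. CCL2, the monocyte chemokine, read 7.22 and 6.03, or 2.29-fold lower on its only probe set. IL1A read 7.80 and 6.92, CXCL2, a neutrophil chemokine, 9.26 and 8.56, and PTGS2, the inducible cyclooxygenase, 7.61 and 7.01 with its other probe set at 5.63 and 5.07. TNFAIP3, the feedback inhibitor of NF-kB, was at -0.45 on each of 2 probe sets. IRAK2, a kinase of interleukin-1 signalling, was at -0.47 and MMP1, interstitial collagenase, at -0.55. CXCL8, another neutrophil chemokine, was nearly level at 13.70 and 13.64. Of 34 kept genes of the list 25 were lower and 4 higher with a median of -0.11, where 40.3% of all kept genes were lower. Lower genes numbered 30 after centring, 28 after removal of the loess curve and 26 after repeated quantile normalization. Of all kept genes 77.0%, 45.9% and 36.5% were lower under the same settings. Centring lowers every difference alike, so a list that is mostly lower as deposited cannot turn under it. Of the 34 listed genes 4 were past 1.5-fold, each lower, and 1 of them without probe sets marked as shared.

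Mitotic genes were lower in most cases but by small amounts. MKI67, the proliferation marker, read 7.02 and 6.45 on its brightest probe set and differed by -0.03 to -0.27 on its other 3. Both NCAPG probe sets, for a condensin subunit, were lower (-0.33 and -0.34). KIF14, a motor of cytokinesis, was at -0.31 and -0.12, and CENPF, a kinetochore protein, at -0.28 and -0.09. Of 56 kept genes 43 were lower, 4 higher and 9 identical with a median of -0.089, and SHCBP1 alone passed 1.5-fold. Lower genes numbered 52 after centring, 42 after the loess curve and 34 after repeated quantile normalization. The shares of all kept genes that were lower under these settings were 77.0%, 45.9% and 36.5%. DNA replication genes differed less, with 14 of 37 lower, 9 higher and a median of 0, but 25 higher after repeated quantile normalization; CDC45, a helicase subunit gene, was at -0.25. Of 32 DNA repair genes 20 were lower and 3 higher (17 and 14 after repeated quantile normalization), led by MRE11, a nuclease of double-strand break repair, at -0.36. Of 21 kept genes that control G1, 6 were higher and 7 lower, 16 were higher after repeated quantile normalization, and CDKN1C, a CDK inhibitor, was at 0.26.

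Matrix genes past 1.5-fold went both ways. COL12A1 read 7.64 and 6.66, with its second kept probe set at -0.48. FBLN5, an elastic fibre protein, read 5.39 and 4.51, ending below the median, and COL6A3 5.89 and 5.25. With TGFBI these were the 4 past 1.5-fold lower, against COL11A1 as the 1 higher. MGP, which inhibits calcification of matrix, was close to that limit at 12.36 and 12.94. Of 58 kept matrix genes 17 were higher and 24 lower with a median of 0, and 36 were higher after repeated quantile normalization, so the list had no settled direction. Among proteases, MMP8 was higher as given above. ADAM12 was lower on its brightest probe set (8.57 to 7.91) and at -0.49, -0.24 and 0 on the others kept. Of 38 kept integrins and adhesion receptors 24 were lower and 8 higher, and 23 were lower after repeated quantile normalization. The fibronectin receptor chain ITGA5 was at -0.43 and ITGA11 at -0.40. The desmosome genes DSP and DSC2 went apart, DSP from 8.55 to 7.68 and DSC2 from 4.48, below the median, to 5.27.

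In the TGF-beta and BMP pathway, the BMP ligand gene BMP7 was higher by 0.60 and 0.66 on 2 probe sets and identical on the other 2. FST, which encodes the activin trap follistatin, was lower on all 3 probe sets: 12.07 and 11.51, 11.88 and 11.30, and 9.10 and 8.34. ID4, a BMP target, was lower on all 4 kept (-0.19 to -0.50), and the receptor gene TGFBR1 was at -0.44. Of 42 kept genes 24 were lower and 12 higher, but 21 were higher and 20 lower after repeated quantile normalization.

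Of 27 kept engulfment and scavenger receptor genes 17 were lower and 6 higher, but 14 lower and 13 higher after repeated quantile normalization. In that list 2 genes were past 1.5-fold lower and 1 higher. MEGF10, a phagocytic receptor, read 7.23 and 6.24, with its other kept probe sets at 0.09 and 0. DOCK1, a guanine nucleotide exchange factor for RAC1, read 6.84 and 6.03, with others at -0.22 and 0. Genes of other lists follow. GAP43, a growth cone protein, read 7.70 and 6.96, with its other kept probe set level. TAPBP, which loads peptides on MHC class I, was at -0.81 on 1 probe set, reading 7.19 after knock-down, and was nearly level on its other 2 kept (0 and -0.03). BIRC6, an inhibitor of apoptosis, was lower on both probe sets (-0.62 and -0.33). TAPBP was the only gene past 1.5-fold of 41 kept in the interferon and antigen presentation list. BIRC6 was the only such gene of 33 kept in the BCL2 family and caspase list. ST6GAL1, a sialyltransferase, read 9.46 and 8.83.

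Metabolic groups differed little per gene. INSIG1, the sterol-regulated brake on cholesterol synthesis, was lower on all 3 probe sets (-0.37 to -0.43). SCD, stearoyl-CoA desaturase, was lower on all 4 (-0.22 to -0.64), and STARD4, a sterol carrier, was at -0.33 on its only probe set. Of 30 kept genes of cholesterol and fatty acid synthesis 18 were lower and 6 higher, with 25 lower after centring and 18 after repeated quantile normalization. In the list of lipid uptake, storage and PPAR targets, which holds CD36, 12 of 35 were higher and 16 lower, but 26 higher after repeated quantile normalization. Beside CD36, its largest differences were PLIN5, a lipid droplet protein, at 0.55, PDK4, a kinase that restrains pyruvate oxidation, at 0.41, and MGLL, a lipase, at -0.43. Of 55 kept oxidative phosphorylation genes 36 were higher and 11 lower with a median of 0.030; after centring 28 were higher and 27 lower, and after repeated quantile normalization 44 were higher. ATP5MC1, of the ATP synthase ring, differed by 0.22 and COX7A2 by 0.21. Core and linker histone genes were higher in 11 of 16 cases and lower in 1, with 10 higher and 6 lower after centring. H2AC6 (6.62 to 6.86) had the largest difference. Of 31 kept autophagy genes 20 were lower and 7 higher, and 17 were lower after repeated quantile normalization. Translation initiation and elongation genes were higher in 20 of 41 cases and lower in 10, but 27 were lower after centring.

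**Figure D4:**
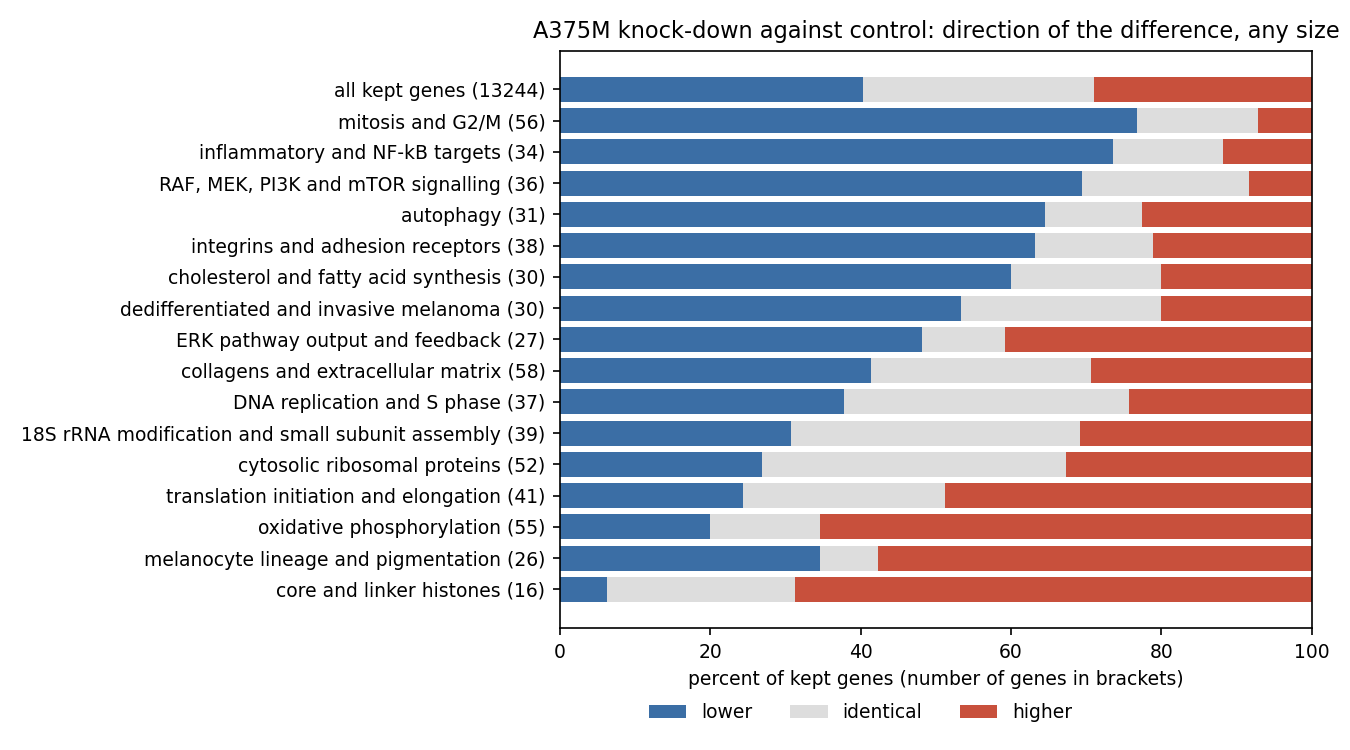
Share of kept genes that were lower (blue), identical (grey) or higher (red) in the A375M knock-down array, for all 13244 kept genes and 16 gene lists, with the number of kept genes in brackets and the share in percent on the x axis. Mitotic genes (43 of 56) and inflammatory genes (25 of 34) have the widest blue bars; the signs are of differences of any size as deposited, and lists with medians near 0 can turn with scaling, as DNA replication does after repeated quantile normalization (25 of 37 higher), while oxidative phosphorylation comes near to even after centring (28 of 55 higher, 27 lower).

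Agreement between probe sets was asked of all genes with at least 3 kept probe sets, of which there were 2668. In 461 of them every kept probe set differed in the same direction, 371 lower and 90 higher. This split was counted as deposited and not repeated under other scalings, with which the signs of small differences turned. As deposited, long genes were lower more often than short ones. Human gene lengths were not used here, so the genomic span of the mouse gene of the same symbol (RefSeq, GRCm38.p6) stood in for 11143 kept genes, 84.1%. In 5 equal bins from the shortest to the longest, 31.8%, 36.9%, 43.3%, 47.7% and 50.7% were lower, and 36.4%, 31.6%, 27.6%, 22.8% and 22.8% were higher. These shares count differences of any size. Past 1.5-fold the longest bin held 18 higher and 18 lower genes, and no other bin held more than 9 in either direction. The part of gene length in the list counts above was not tested.

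Beside A375M, the LM8 pair gives another reading of the same knock-down in another species and tissue. Of the 99 genes past 1.5-fold in A375M, 76 had a namesake on the mouse array and 39 of these were kept there. In 18 of the 39 the LM8 difference had the same direction. Only 3 were also past 1.5-fold in that direction in LM8, where 288 of 11646 kept genes (2.47%) were past 1.5-fold. They were BUD23 (-2.32 in A375M and -2.13 in LM8), MEGF10 (-0.99 and -1.02) and PDE7B, a cyclic AMP phosphodiesterase (0.71 and 1.94). PDE7B read 5.16 and 5.87 in A375M, with its other probe sets below the median. Other namesakes lay nearer to 0 in LM8: CDCA7L was at -0.02 in LM8, TPP1 at -0.03, SHCBP1 at -0.01, DCLK1 at -0.12 and COL12A1 at 0.10. SORL1 (-0.59 in A375M) was at 0.52 and FBLN5 (-0.88) at 0.37. Whether any gene differs between the lines was not tested, since each group held 1 array. The namesakes of CD36, PLN, SOX11, LIN28B, CCL2 and IL1A were not kept in LM8.

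**Figure D5:**
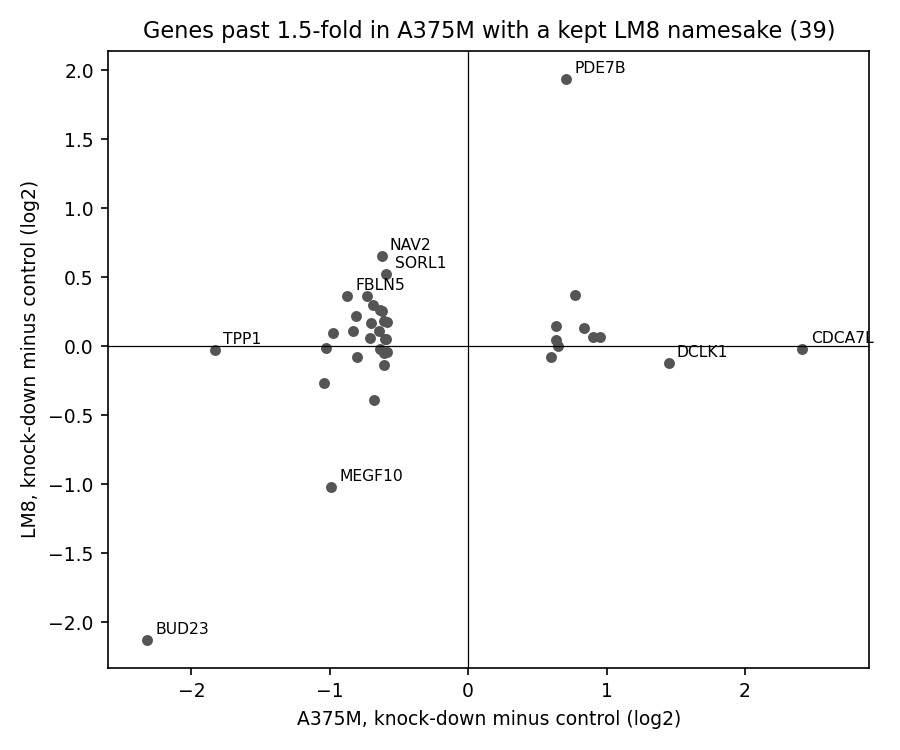
Knock-down minus control (log2) in A375M (x axis) and in LM8 (y axis) for the 39 genes past 1.5-fold in A375M whose namesake was kept in LM8, 1 point per gene with some named. BUD23 and MEGF10 lie in the lower left and PDE7B in the upper right, while most other points lie close to the horizontal line at 0.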

How the data were processed

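Total RNA of A375M control and knock-down cells was labelled with biotin as cRNA and hybridised to Affymetrix arrays, per the labels' protocols. The deposited log2 values, 1 for each probe set, come from RMA according to the submitters' processing notes; its version and settings are not given in the sources used here. Groups came from the sample titles. Gene names came from GEO's annotation of the platform, and only a probe set with exactly 1 symbol was used to name a gene. Values were used as deposited and only differences were computed (Python 3.11.15, pandas 2.3.3). The 59 gene lists, 10 marker lists and the comparisons were chosen with earlier results of these data known. Named genes were BUD23 and its partners, genes past 2-fold, genes past 1.5-fold on every one of several kept probe sets, the largest differences of each list (those past 1.5-fold and up to 4 more), and, as a baseline, members of the melanocyte, invasive, ERK and receptor lists whatever their difference, a choice of which the text names. Genes outside these rules are said to be singled out after their values were seen, apart from the cell type markers. The code was tested on simulated data. The 8 alternatives were quantile normalization run again, centring of each array on its median, a loess curve over level (span 0.4) taken off, no filter on level or one at the 70th percentile, each gene as the mean over its probe sets, only probe sets not marked _x_at or _s_at (the marks of probes that several transcripts share), and 32 added to linear values. Some list genes were not analysed here.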

Additional observations from a re-analysis of the deposited data

Results flagged for a closer look

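NAV2, which encodes a protein of neurite outgrowth, was past 1.5-fold in opposite directions in the 2 lines, at -0.63 in A375M and 0.65 in LM8. In A375M its brightest probe set read 6.19 and 5.56, and its other 2 kept probe sets were identical in both arrays. With 1 array per group the difference between the lines was not tested.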

How the results depend on the processing

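The count of genes at least 2-fold higher (11) was 5 under the stricter filter (70th percentile), 7 when probe sets were averaged per gene and 2 with 32 added; the count of genes at least 2-fold lower (6) was 3 without shared probe sets and 2 with 32 added. At 1.5-fold, the higher count (50) was 20 with the stricter filter and 15 with 32 added, and the lower count (49) was 23 with the mean of probe sets and 23 with 32 added. The stricter filter and the exclusion of probe sets test fewer genes, and adding 32 shrinks differences of dim genes by construction. BUD23 was at -1.22 when its probe sets were averaged, which takes in the dim one, and it was not kept without shared probe sets. Among the genes past 1.5-fold, TPP1 alone changed sign under these alternatives, at 0.25 without shared probe sets. Of the 98 genes past 1.5-fold besides BUD23, 92 stayed past it after centring, 92 after the loess curve and 80 after repeated quantile normalization. Under the stricter filter 58 stayed past it (40 were not kept), with the mean of probe sets 49 and with 32 added 27. Without shared probe sets 68 stayed past it, and 25 were not kept, a count that includes BUD23. No paired analysis was possible because each group held 1 array. Signal over background limits the dim genes, and no value here measures the spread between cultures.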
